A study of Sus scrofa with 21 samples.

Results

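*DNLZ* (ENSSSCG00000034732) and 7 genes whose proteins work with it around the mitochondrial HSP70 chaperone were followed through the testis transcriptomes of 21 boars. The genes were chosen by symbol, and 7 of the 8 named genes (*DNLZ*, *HSPA9*, *HSPD1*, *HSPE1*, *GRPEL2*, *TIMM44* and *DNAJC19*) were matched to rows of the deposited table of 25880 Ensembl pig genes. *GRPEL1* was matched to no Ensembl identifier in the name table and was not analysed here. The choice of genes started from the Landrace values of *DNLZ*, so their differences between groups are given as a description without a test. Tests are given for the 6 partner genes and, for *DNLZ*, among Duroc boars only, apart from correlations within the Landrace label groups.

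The boars were purebred animals of 2 breeds whose testis tissue was frozen after slaughter, with 1 mRNA library per boar, and the labels give no age. They were selected for divergent sperm hyperactivity, a vigorous swimming pattern measured on their ejaculates. For contrast (i), 4 Landrace boars labelled Low_d0 (L1, L2, L3, L4) and 4 labelled High_d0 (L5, L6, L7, L8) differed in hyperactivity on the day of collection, day 0. For contrast (iii), 4 Landrace boars labelled Low_d4_0 (L2, L9, L10, L12) and 3 labelled High_d4_0 (L7, L13, L15) differed in the change of hyperactivity between day 0 and day 4 of liquid storage. L2 and L7 carried labels of both contrasts, which therefore share 1 low and 1 high boar. The 8 Duroc boars were labelled High (D1, D2, D3, D4, D5) or Low (D6, D7, D9). By name, the study lists the opposite group for 7 of these 8 boars. The names do not match by read depth either, since the library deposited as D3 holds 125576407 counts on genes, more than the reads listed for the boar of that name. The 2 deepest libraries, D2 and D3, carry the High label, as do the 2 deepest Duroc boars in that list, so the names may differ where the groups do not. No boar was regrouped, and Duroc values below are by deposited label. The labels name no treatment.

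HSP70 of the mitochondrial matrix, encoded by *HSPA9*, pulls precursor proteins through the inner membrane and helps them fold. The zinc-ribbon protein *DNLZ* binds this HSP70 and keeps it soluble, GrpE-type factors renew its nucleotide, and *TIMM44* and J-domain proteins such as *DNAJC19* tie it to the import channel. The HSP60 ring (*HSPD1*) and its HSP10 lid (*HSPE1*) take over folding in the matrix. Spermatocytes and spermatids carry many mitochondria, which later line the sperm midpiece.

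The libraries held 41358671 to 125576407 reads counted on genes. Markers of spermatids, spermatocytes, Sertoli cells and Leydig cells were detected in all groups, and *AMH*, a product of immature Sertoli cells, was at 0 in all 21 boars. Levels below are CPM, the read count relative to a library size corrected with TMM factors (a trimmed mean of log ratios) over all 21 libraries. They compare 1 gene between boars and not genes with each other, since no exon lengths were used. In bulk tissue, fewer cells of a type and less RNA per cell cannot be told apart. The FDR is the Benjamini-Hochberg adjusted p of edgeR's quasi-likelihood test over all genes tested, with a threshold of 0.05, and fold changes are high over low.

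*DNLZ* was low in every Landrace boar with a High label. In Low_d0 its level was 4.94 CPM in L1, 2.52 in L2, 4.52 in L3 and 3.41 in L4. In High_d0 it was 0.756 CPM in L5, 0.455 in L6, 0.830 in L7 and 0.338 in L8. The lowest of the Low_d0 boars thus stood above the highest of the High_d0 boars, and the group means were 3.85 ± 1.09 CPM (SD, n = 4) and 0.595 ± 0.236 CPM (SD, n = 4). In contrast (iii), the Low_d4_0 boars L9, L10 and L12 had 2.87, 2.57 and 4.37 CPM, and the High_d4_0 boars L13 and L15 had 0.968 and 0.712 CPM. With L2 and L7 included, the means were 3.08 ± 0.872 CPM (SD, n = 4) in Low_d4_0 and 0.837 ± 0.128 CPM (SD, n = 3) in High_d4_0, again without overlap. By deposited label, high over low, *DNLZ* had a log2 fold change of -2.75 (SE 0.37) in contrast (i) and of -1.88 (SE 0.31) in contrast (iii). The paper's text gives the opposite sign for both contrasts, while the mean counts it lists are lower in its high groups. The reason for this difference of sign was not tested. The counts behind these levels were small in the high boars, from 27 in L8 to 82 in L13, against 136 to 406 in the low boars. For L8 the exact Poisson interval of 27 reads was 17.8 to 39.3 reads, or 0.223 to 0.492 CPM, which covers counting error only. At these levels *DNLZ* reached 1 CPM in none of the High-labelled Landrace boars. In contrast (i) it passed the filter of 1 CPM in 4 libraries through the low group. In contrast (iii) it was kept in all 7 fits without 1 boar, so there the filter did not rest on the low group alone.

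Over the 13 Landrace boars, all 6 with a High label lay below all 7 with a Low label. On the log2 CPM scale the gap between the highest High boar and the lowest Low boar was 1.35, the widest among 13126 genes, and the second widest was 0.51. This rank is a description and no separate evidence, because the values of the same boars chose the gene. Groups without overlap were themselves common, at 5.97% of these genes, of which 567 were lower and 216 higher in the High boars. None of the 6 partners separated the boars in this way. *ENTR1*, which lies near *DNLZ*, did so with a gap of 0.073.

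**Figure D1:**
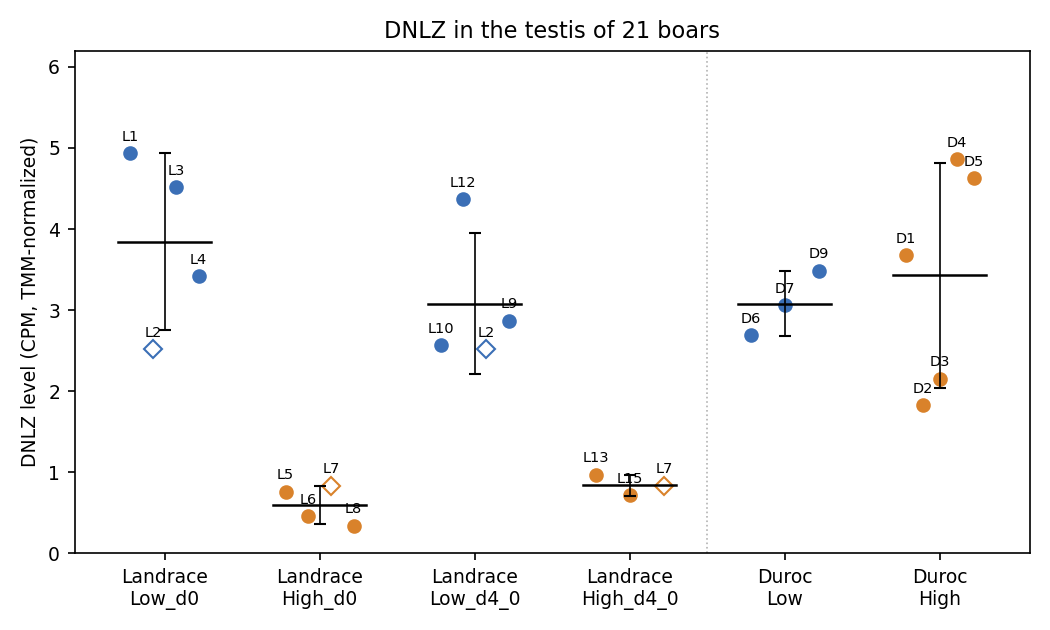
Level of *DNLZ* (TMM-normalized CPM, y axis from 0) in each boar by label group, blue for Low and orange for High labels, with the mean as a line and the SD as bars. L2 and L7 (open diamonds) are drawn in both Landrace contrasts. The High-labelled Landrace boars lie from 0.338 to 0.968 CPM, below every other boar.

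In Duroc boars the label did not separate *DNLZ*. The boars labelled High had 3.68 CPM in D1, 1.82 in D2, 2.15 in D3, 4.86 in D4 and 4.63 in D5, and those labelled Low had 2.69 in D6, 3.06 in D7 and 3.49 in D9. The Low boars lay inside the range of the High boars. High over low, the log2 difference was 0.18 (95% interval -0.66 to 1.02, FDR = 1), and the two-sided exact permutation test over the 8 boars gave p = 0.875. A change of the size seen in contrast (i) lay outside this interval, which is only a description because that size chose the gene. The Duroc groups here are those of the deposited labels, and by name the study lists the opposite group for 7 of the 8 boars. The breed-by-label difference for *DNLZ* was 2.91 (SE 0.56) on the log2 scale, given as a description because its Landrace side chose the gene.

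Every Duroc boar had more *DNLZ* than every High-labelled Landrace boar. From the lowest to the highest group mean, the order was High_d0, High_d4_0, Low_d4_0, Duroc Low, Duroc High and Low_d0. The first and second of these overlapped, no boar lay between 0.968 and 1.82 CPM, and the other 4 groups overlapped one another. All 8 Duroc boars averaged 3.30 ± 1.09 CPM (SD), against 2.25 ± 1.68 CPM (SD) in the 13 Landrace boars. The breed difference was 0.55 on the log2 scale (SE 0.43), without a test because the Landrace values chose the gene. Against the 7 Low-labelled Landrace boars alone, a set chosen after the values were seen, the difference turned to -0.13. *DNLZ* spread more among Landrace boars than any partner, with a highest-to-lowest ratio of 14.6 and a coefficient of variation of 74.7%. In Duroc boars these were 2.66 and 33.0%. For the 6 partners, the ratio over all 21 boars ran from 1.90 for *HSPA9* to 3.23 for *HSPE1*.

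*HSPA9* (ENSSSCG00000014338), the gene of the HSP70 itself on chromosome 2 from 140515239 to 140532164, had a higher mean in the High-labelled Landrace boars, where *DNLZ* was low, but the difference did not pass. In Low_d0 it had 183 CPM in L1, 242 in L2, 169 in L3 and 201 in L4. In High_d0 it had 230 in L5, 318 in L6, 294 in L7 and 267 in L8. The groups overlapped only through L2, which was above L5. In contrast (i) the log2 fold change of *HSPA9* was 0.41 (SE 0.15, FDR = 0.0640), and the two-sided exact permutation test gave p = 0.0571. This call sat at the threshold. The likelihood ratio test (FDR = 0.0464), DESeq2 (FDR = 0.0340), relative log expression scaling (FDR = 0.0499) and the fit without L5 (FDR = 0.0287) each passed it. The other 13 of 17 refits did not, with an FDR of up to 0.211 (without L3).

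In contrast (iii), *HSPA9* was at 231, 196 and 196 CPM in L9, L10 and L12 and at 308 and 228 CPM in L13 and L15. L15 lay among the low boars, and the log2 fold change was 0.34 (SE 0.15, FDR = 0.245). In Duroc boars the level ran from 199 to 322 CPM under the High label and from 219 to 263 CPM under the Low label. There the log2 fold change was 0.11 (95% interval -0.26 to 0.49, FDR = 1), and it turned to -0.082 without D2 and D3, which were left out together after the values were seen. Between breeds the difference was 0.11 (SE 0.11, FDR = 0.923).

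*HSPD1* (ENSSSCG00000016077) and *HSPE1* (ENSSSCG00000016078), the HSP60 and HSP10 genes, lie side by side on chromosome 15 in the RefSeq annotation of Sscrofa11.1. *HSPD1* spans 101360355 to 101373498 and *HSPE1* 101374019 to 101376146, with 520 bases between them. *HSPD1* had 77.8, 119, 71.3 and 82.2 CPM in L1 to L4 and 95.01, 219, 151 and 116 CPM in L5 to L8. *HSPE1* had 48.7, 56.9, 38.3 and 59.7 CPM in L1 to L4 and 57.5, 121, 82.6 and 55.0 CPM in L5 to L8. For both genes L6 was by far the highest day 0 boar, L7 was second, and L5 and L8 lay within the low range. Log2 fold changes in contrast (i) were 0.66 (SE 0.24, FDR = 0.0701) for *HSPD1* and 0.57 (SE 0.24, FDR = 0.0999) for *HSPE1*. Neither passed. *HSPD1* passed by the likelihood ratio test (FDR = 0.0421), DESeq2 (FDR = 0.0248), a filter of 1 count in 1 library (FDR = 0.0460) and without L5 (FDR = 0.0261), and *HSPE1* without L5 (FDR = 0.0497). The other 13 of 17 refits of *HSPD1* and 16 of 17 of *HSPE1* did not pass. With 1 boar left out, *HSPD1* ran from 0.397 (without L6, FDR = 0.182) to 0.837 (without L5). *HSPE1* ran from 0.294 (without L6, FDR = 0.293) to 0.730 (without L8).

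The same pair carried the largest partner differences of contrast (iii). *HSPD1* had 82.1, 85.3 and 90.1 CPM in L9, L10 and L12, against 214 in L13 and 115 in L15. *HSPE1* had 47.5, 39.6 and 52.3 CPM in L9, L10 and L12, against 124 in L13 and 62.0 in L15. L13 was the highest of these boars for both genes. For *HSPE1* no high boar overlapped a low boar, as in 16.4% of genes tested in this contrast (7.9% on the higher side), while for *HSPD1* the shared boar L2 stood above L15. In log2 terms the high group exceeded the low by 0.75 (SE 0.21) for *HSPD1* and 0.85 (SE 0.23) for *HSPE1*, both with an FDR of 0.240. No gene had a smaller FDR in this contrast, but the adjustment gave this value to other genes too. *ENTR1* shared it with an unadjusted quasi-likelihood p of 0.0230, against 0.00530 for *HSPD1* and 0.00339 for *HSPE1*. With 1 boar left out, the difference ran from 0.492 to 0.942 for *HSPD1* and from 0.551 to 1.06 for *HSPE1*. Both were lowest without L13 and highest without L15. For *HSPE1* the two-sided exact permutation test gave p = 0.0286, the smallest that 4 against 3 boars allow.

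Duroc boars showed a narrower spread of both genes. *HSPD1* had 107, 140, 145, 86.2 and 149 CPM in D1 to D5 and 93.3, 123 and 110 CPM in D6, D7 and D9. *HSPE1* had 56.6, 64.9, 77.1, 48.6 and 74.0 CPM in D1 to D5 and 45.5, 58.0 and 53.9 CPM in D6, D7 and D9. D4 was low and D3 and D5 high for both genes. By deposited label the log2 fold change was 0.23 (95% interval -0.21 to 0.67) for *HSPD1* and 0.31 (95% interval -0.090 to 0.72) for *HSPE1*, with an FDR of 1 each. Between breeds the differences were 0.049 (SE 0.19) and -0.10 (SE 0.20), with an FDR of 0.998 each. Against the 7 Low-labelled Landrace boars alone, the difference for *HSPE1* turned to 0.28.

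The levels of *HSPD1* and *HSPE1* were also compared from boar to boar. Over the 8 Duroc boars, Pearson's r of log2 CPM was 0.945 (exact permutation p = 0.000819, FDR = 0.0565 over 69 relations computed among members and library depth), with a Spearman's rho of 0.929 (exact permutation p = 0.00223). Without the 2 boars farthest from the median of *HSPD1*, r was 0.945. Over the 6 High-labelled Landrace boars r was 0.976 (exact permutation p = 0.0111, FDR = 0.274) with a rho of 0.771 (exact permutation p = 0.103), and without 2 boars it was 0.863. Over the 7 Low-labelled boars r was 0.564 (exact permutation p = 0.195, FDR = 0.527) with a rho of 0.571 (exact permutation p = 0.200), and without 2 boars r was -0.051. No relation among the 69 passed the adjustment.

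Over the 8 Duroc boars, *DNLZ* and *HSPA9* showed no relation that passed. Pearson's r was -0.692 (exact permutation p = 0.0596, FDR = 0.343) and rho was -0.691 (exact permutation p = 0.0694), and r without 2 boars was -0.185. That relation rests on D2 and D3, the lowest in *DNLZ*. Over all Landrace boars together the relation is shown in the plot and not tested. Those values of *DNLZ* chose the gene and split the boars into 2 separate ranges. Within the 7 Low-labelled boars r was -0.767 (exact permutation p = 0.0488, FDR = 0.306), and -0.633 without 2 boars. Within the 6 High-labelled boars it was -0.053 (exact permutation p = 0.917, FDR = 0.994), and 0.919 without 2 boars. Neither passed the adjustment.

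**Figure D2:**
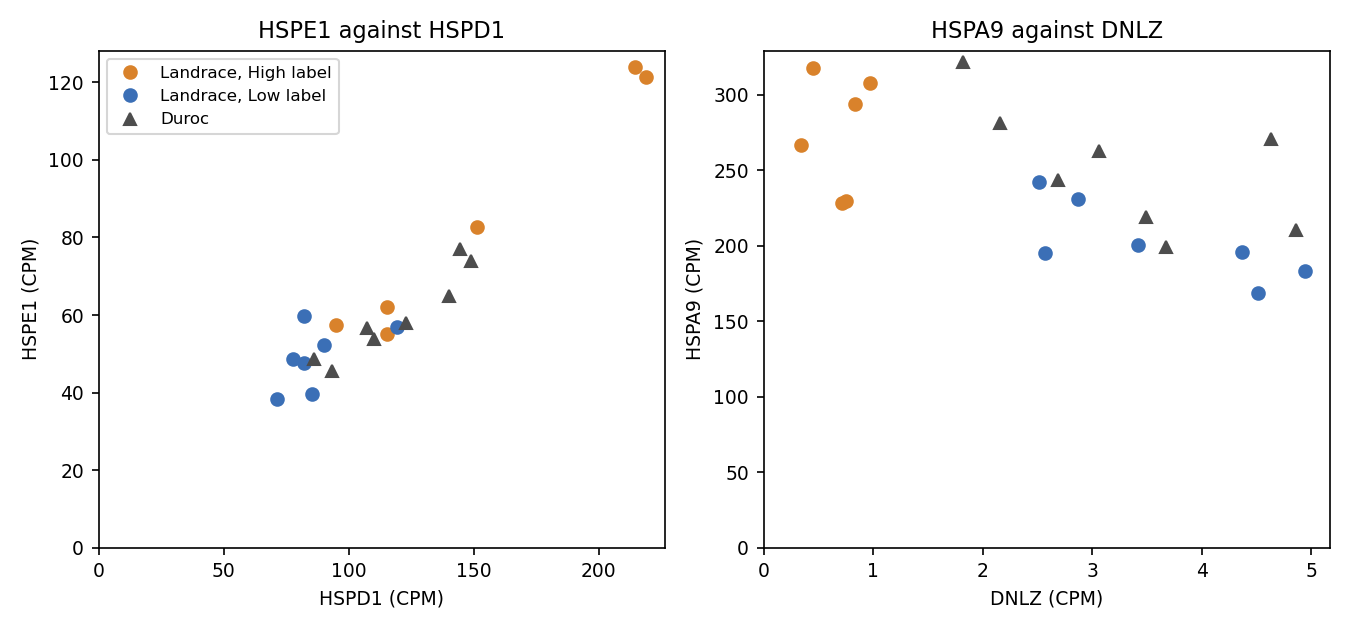
Level of *HSPE1* against *HSPD1* (left) and of *HSPA9* against *DNLZ* (right) in each of 21 boars, all axes in TMM-normalized CPM and starting at 0, with orange and blue circles for High- and Low-labelled Landrace boars and grey triangles for Duroc boars. *HSPE1* climbs with *HSPD1*, L6 and L13 stand at the top right with 121 and 124 CPM of *HSPE1*, and the High-labelled Landrace boars form a separate column at the left of the *DNLZ* axis.

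*GRPEL2* (ENSSSCG00000014432), a nucleotide exchange factor of the mitochondrial HSP70 that sits on chromosome 2 from 150510520 to 150520013, passed in no comparison. It ran from 9.497 to 12.4 CPM in Low_d0 and from 10.8 to 14.8 CPM in High_d0, a log2 fold change of 0.24 (SE 0.17, FDR = 0.305). In contrast (iii) the low boars had 10.1 to 13.5 CPM and the high boars held both the lowest and the highest value of all 21, 9.48 CPM in L15 and 18.6 CPM in L13. The log2 fold change of 0.10 (SE 0.25, FDR = 0.824) turned to -0.25 without L13. In Duroc boars it was -0.091 (95% interval -0.47 to 0.29, FDR = 1), over a range of 11.2 to 14.4 CPM, and between breeds 0.062 (SE 0.12, FDR = 0.998).

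*TIMM44* (ENSSSCG00000013591), the membrane anchor of HSP70 at the import channel, encoded on chromosome 2 from 71271778 to 71287795, was the only partner with a negative estimate in both Landrace contrasts. It had 14.3, 19.8, 12.6 and 19.4 CPM in L1 to L4 and 13.5, 9.72, 15.1 and 6.92 CPM in L5 to L8. L6 and L8, the day 0 boars with the least *DNLZ*, were also lowest in *TIMM44*, and L5 and L7 overlapped the low group. No stable relation of the 2 genes was seen. Over the 6 High-labelled Landrace boars Pearson's r was 0.778 (exact permutation p = 0.0681, FDR = 0.361), and -0.545 without 2 boars. Over the 7 Low-labelled boars it was 0.019 (exact permutation p = 0.967, FDR = 0.994), and 0.442 without 2 boars. Contrast (i) gave a log2 fold change of -0.61 (SE 0.26, FDR = 0.0988). In contrast (iii) it was -0.20 (SE 0.26, FDR = 0.654), with 10.5, 11.4 and 15.7 CPM in L9, L10 and L12 and 10.2 and 12.5 CPM in L13 and L15. With 1 boar left out, this estimate ran from -0.352 (without L7) to -0.0021 (without L2), so its size rests on the shared boar L2. In Duroc boars the levels lay between 10.5 and 15.6 CPM. By deposited label their log2 fold change was -0.093 (95% interval -0.55 to 0.36, FDR = 1), or 0.0058 without D2 and D3. The breed difference was -0.034 (SE 0.16, FDR = 0.998), and its sign changed in 3 of the fits that left out 1 boar.

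*DNAJC19* (ENSSSCG00000011770), a J-domain protein of the inner membrane encoded on chromosome 13 from 118907299 to 118913270, had 18.6 to 22.2 CPM in Low_d0 and 21.7 to 26.0 CPM in High_d0. The log2 fold change in contrast (i) was 0.089 (SE 0.14, FDR = 0.645). In contrast (iii) it had 20.1, 20.6, 17.5 and 19.5 CPM in L2, L9, L10 and L12 and 22.5, 34.1 and 23.8 CPM in L7, L13 and L15. These groups did not overlap, as in 7.9% of all genes on the higher side, and L13 was again the highest. Contrast (iii) gave a log2 fold change of 0.45 (SE 0.19, FDR = 0.245), and the exact permutation test gave p = 0.0286. With 1 boar left out, the log2 fold change ran from 0.250 (without L13) to 0.566 (without L7). In Duroc boars it was 0.15 (95% interval -0.19 to 0.50, FDR = 1), and between breeds 0.040 (SE 0.10, FDR = 0.998).

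**Figure D3:**
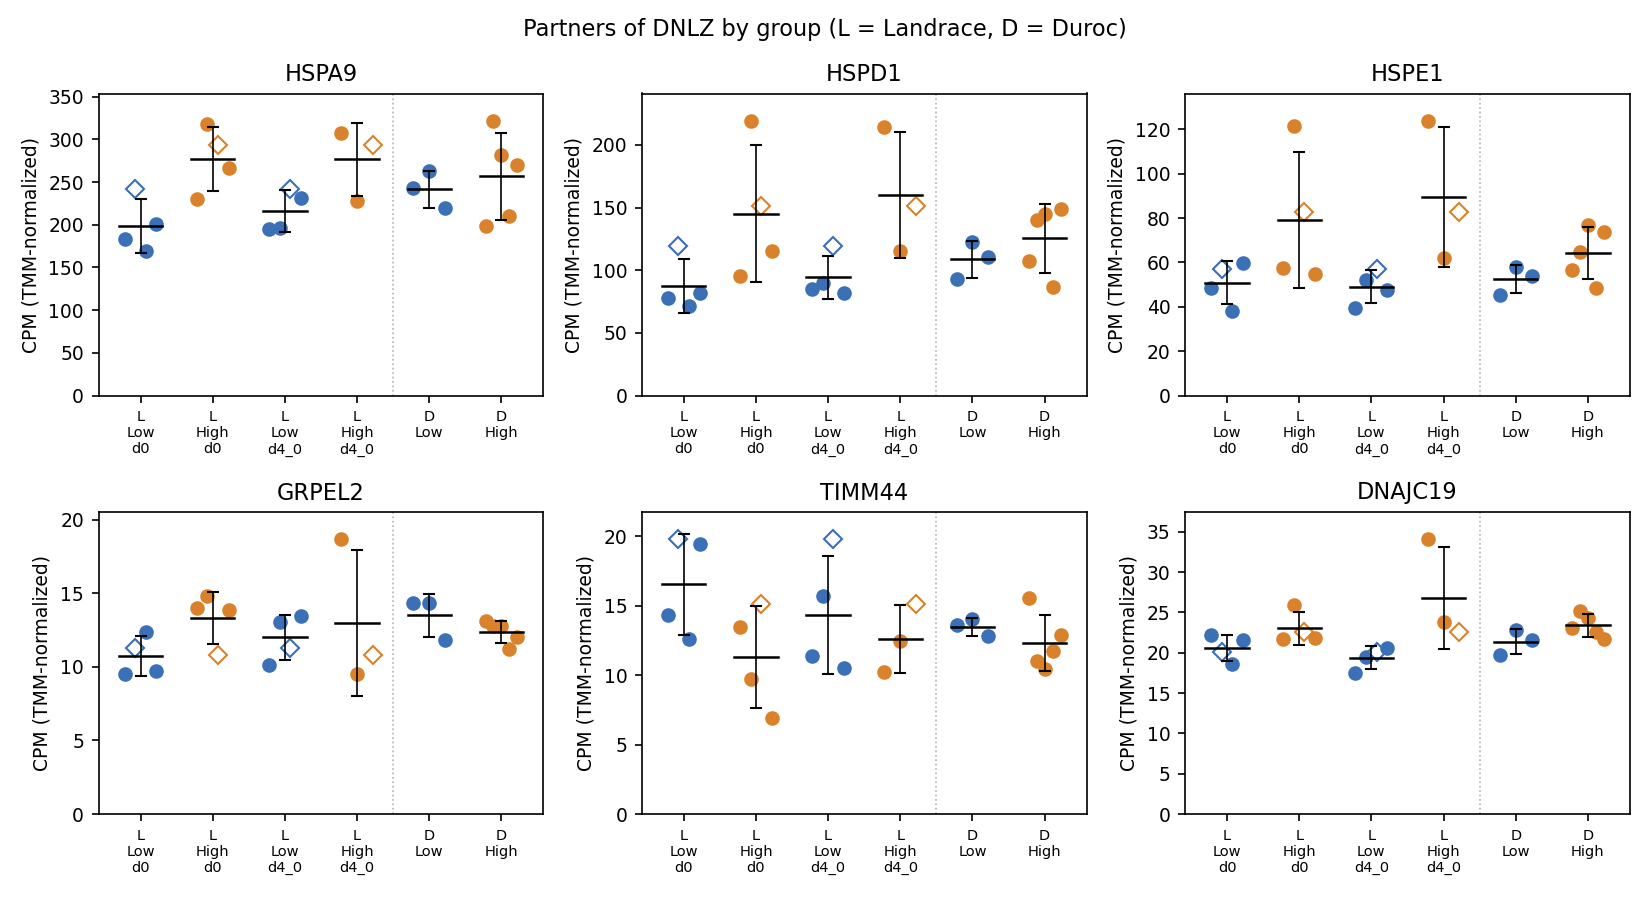
Level of the 6 partners (TMM-normalized CPM, y axes from 0) in each boar by label group, blue for Low and orange for High labels, with the mean as a line and the SD as bars; open diamonds are L2 and L7, which belong to both Landrace contrasts. *HSPD1* and *HSPE1* show single high boars, L6 at 219 and 121 CPM and L13 at 214 and 124 CPM.

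Counted together, 0 of the 6 partners passed in contrast (i), where 20.7% of 12979 genes tested passed, 4.82% higher and 15.8% lower. By unadjusted p below 0.05, 4 of the 6 (*HSPA9*, *HSPD1*, *HSPE1* and *TIMM44*) were selected, against 41.7% of all genes. No partner separated the groups of contrast (i), as 31.4% of all genes did. In contrast (iii), 0 of the 6 and 0% of 12824 genes passed by the quasi-likelihood test, while 64 genes passed by the likelihood ratio test and 116 by DESeq2, no partner among them. By unadjusted p, 4 of the 6 (*HSPA9*, *HSPD1*, *HSPE1* and *DNAJC19*) and 19.8% of all genes were below 0.05, and 2 of the 6 (*HSPE1* and *DNAJC19*) and 16.4% of all genes had groups without overlap. In Duroc boars 0 of the 7 members and 0% of 13043 genes passed, also by the likelihood ratio test and DESeq2, and 1.21% of genes were below 0.05 by unadjusted p. Between breeds 0 of the 6 partners passed, against 2.88% of 13126 genes.

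The difference of the label effect between the breeds was tested for the partners and passed for none. For *HSPA9* the Duroc effect was lower than the Landrace effect by 0.33 on the log2 scale (interaction -0.33, SE 0.21, FDR = 0.399), and for *HSPD1* the interaction was -0.46 (SE 0.34, FDR = 0.446). For *TIMM44* it was 0.49 (SE 0.35, FDR = 0.431). No gene of 12920 passed this test, 15.1% were below 0.05 by unadjusted p, and 3 passed by the likelihood ratio test. The Duroc groups in this test are those of the deposited labels.

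**Figure D4:**
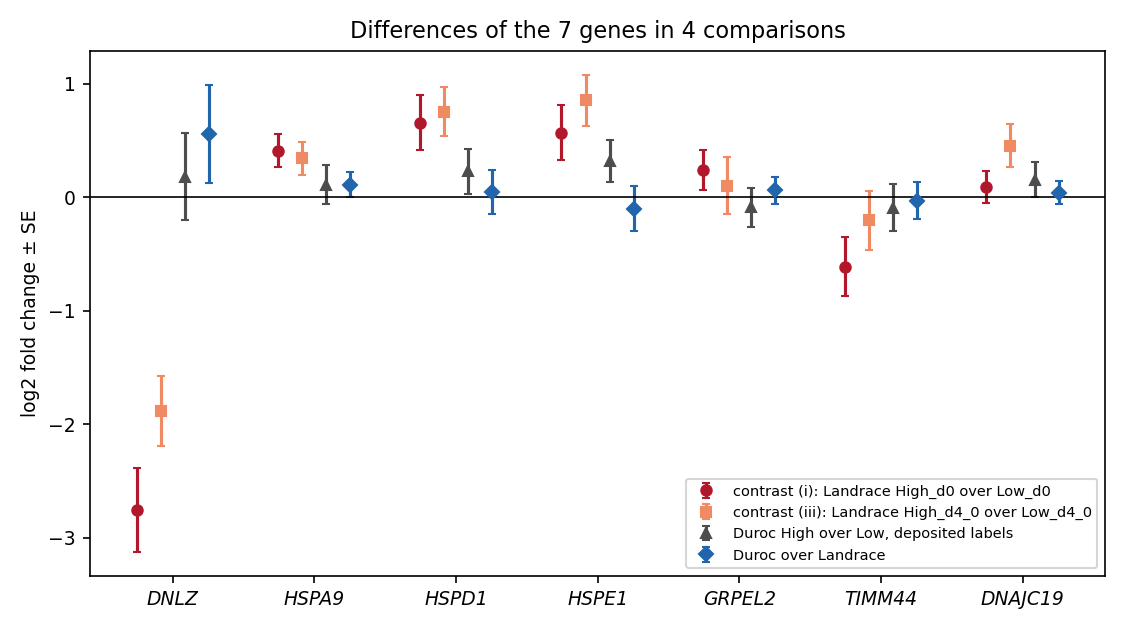
Log2 fold change (y axis, with SE bars) of the 7 genes (x axis) in contrast (i), contrast (iii), the Duroc comparison by deposited label, and Duroc over Landrace. *DNLZ* lies at -2.75 and -1.88 in the Landrace contrasts, and every partner estimate lies between -0.61 and 0.85.

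Other measures moved with the labels of contrast (i). The summed level of pachytene spermatocyte markers (5 of 6 listed genes measured, none called) was 485 to 704 CPM in Low_d0 and 758 to 1206 CPM in High_d0, without overlap. In contrast (iii) it was 600 to 806 CPM and 728 to 781 CPM. The summed level of 8 spermatid markers overlapped in both contrasts (7604 to 11633 against 9414 to 12628 CPM in contrast (i)). In contrast (i) 3 of them fell, beside 15.8% of all genes, and 5 did not pass. Of the latter, *ACRV1* (0.46), *SPACA1* (0.39), *TNP1* (0.21) and *ODF1* (0.071) had positive estimates. In contrast (iii) the sum was 9015 to 12417 CPM in Low_d4_0 (median 9512) and 5555 to 10228 CPM in High_d4_0 (median 6408). Summed Sertoli cell markers were 178 to 205 CPM in Low_d4_0 and 183 to 431 CPM in High_d4_0. Leydig cell markers ran from 1639 to 2090 CPM in Low_d0 and from 470 to 4519 CPM in High_d0. No tested marker of spermatogonia, Sertoli cells, Leydig cells, endothelial cells or macrophages passed in contrast (i), and of the peritubular myoid markers *MYH11* fell, with summed levels of 38.6 to 94.0 CPM in Low_d0 and 16.6 to 59.2 CPM in High_d0. The share of reads with more than 1 alignment was 7.53% to 7.92% in Low_d0 and 5.83% to 7.20% in High_d0, and the TMM factors were 1.03 to 1.18 and 0.822 to 0.986. The part of these measures in the *DNLZ*, *HSPA9*, *HSPD1*, *HSPE1*, *TIMM44* and *DNAJC19* differences of either contrast was not tested.

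The machinery around these genes was described by 5 lists of mitochondrial genes, 44 in all, of which 35 were matched and 34 tested. In contrast (i), 1 rose, 7 fell and 26 did not pass, a share near the 20.7% of all genes called (4.82% higher and 15.8% lower), and the median log2 fold change was -0.29 against 0.035 for all genes. With so few genes a list, the counts below are descriptions beside those shares. Among 6 tested genes of the TIM23 channel and its motor, 3 fell, namely *ROMO1* (-1.23, SE 0.39, FDR = 0.0442), *TIMM17B* and *TIMM50* (-1.01, SE 0.22, FDR = 0.0209), the receptor that hands precursors to the channel. Of 6 genes of the outer membrane TOM complex, *TOMM20*, a presequence receptor, rose (0.48, SE 0.14, FDR = 0.0363) and 5 did not pass. Of the 4 other matrix chaperones, *TRAP1*, the HSP90 of mitochondria (-0.94, SE 0.28, FDR = 0.0391), and *CLPB*, a disaggregase (-0.91, SE 0.22, FDR = 0.0228), fell. Of 11 proteases and processing enzymes, *SPG7* (-1.09, SE 0.24, FDR = 0.0209) and *LONP1*, the Lon protease (-0.81, SE 0.26, FDR = 0.0478), fell and 9 did not pass.

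None of 7 tested genes of iron-sulphur cluster assembly, a pathway that needs mitochondrial HSP70, passed in contrast (i), and their median was -0.27. No gene of the 5 lists passed in contrast (iii), in Duroc boars or between breeds, with medians of -0.11, 0.11 and -0.017. The calls of contrast (i), here and for the genes next to *DNLZ*, rest on single boars: without L3, and likewise without L6, 1 gene of the whole table passed.

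The genes beside *DNLZ* on the RefSeq annotation of Sscrofa11.1 were compared with it. *DNLZ* is on a sequence not assigned to a chromosome, from 1351551 to 1353285, and the table pools such sequences under 1 name, so the distances assume a shared sequence. Of the 10 protein-coding genes taken, 5 on each side, 8 were matched and 5 tested. All 5 had negative estimates in contrast (i), where 3 fell (15.8% of all genes fell) and 4 were lower without overlap (16.6% of all genes). *SNAPC4*, a subunit of the complex that starts transcription of small nuclear RNAs, 9982 bases away, had 1.48, 1.66, 2.57 and 2.01 CPM in L1 to L4. In L5 to L8 it had 0.962, 0.683, 0.720 and 0.376 CPM, so that the groups did not overlap. Its log2 fold change was -1.57 (SE 0.35, FDR = 0.0209).

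*ENTR1*, an endosomal trafficking regulator 31016 bases away, fell by 0.79 on the log2 scale (SE 0.17, FDR = 0.0208). *QSOX2*, a thiol oxidase gene 93778 bases away, fell by 0.98 (SE 0.30, FDR = 0.0394). *INPP5E* (-0.84, SE 0.29, FDR = 0.0563) and *PMPCA*, a subunit of the enzyme that removes import signals (-0.30, SE 0.16, FDR = 0.171), did not pass. In contrast (iii), where no gene of the table passed, all 5 had negative estimates, from -0.66 for *ENTR1*, which also had groups without overlap, and -0.64 for *SNAPC4* to -0.19 for *PMPCA*. In Duroc boars none of the 5 passed, and the estimates ran from -0.059 for *ENTR1* to 0.10 for *PMPCA*. *CARD9*, whose end is 198 bases from *DNLZ*, had 0 to 3 reads in any boar.

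**Figure D5:**
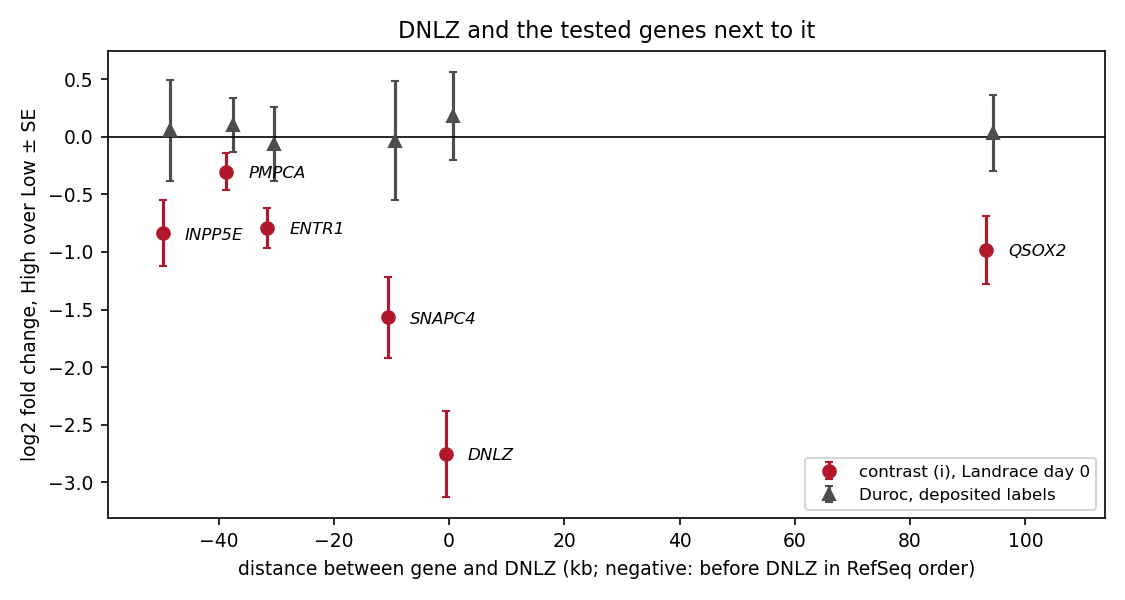
Log2 fold change of high over low (y axis, with SE bars) against the distance from *DNLZ* in kb (x axis) for *DNLZ* and the 5 tested genes beside it, red circles for contrast (i) and grey triangles for Duroc boars by deposited label. *DNLZ* at -2.75 and *SNAPC4* at -1.57 are the lowest points of contrast (i), and the Duroc points lie near 0.

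Genes whose pattern was most like that of *DNLZ* were found by Pearson's r of log2 CPM over the 21 boars after subtracting breed means. The highest were *RAB26* (r = 0.914), a small GTPase of secretory vesicles, *INCENP* (r = 0.913), a chromosomal passenger protein, *GFOD2* (r = 0.911), *ANKS6* (r = 0.911) and ENSSSCG00000011549 (r = 0.907). The most opposed were *INPP5F* (r = -0.866), a phosphoinositide phosphatase, and the kinase genes *MAPK9* (r = -0.852) and *CDK17* (r = -0.849). These values are descriptions. The 2 separate ranges of the Landrace boars weigh in them, and 847 of 13125 genes had an r of at least 0.8. Over the 8 Duroc boars alone, which are among the 21 that picked these genes, r with *DNLZ* was 0.969 for *RAB26*, 0.803 for *INCENP* and -0.883 for *MAPK9*. *RAB26* had 0.313 to 1.34 CPM in the High-labelled Landrace boars, 1.58 to 3.45 CPM in the Low-labelled and 0.756 to 3.12 CPM in Duroc boars.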

How the data were processed

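Testis RNA of 13 Landrace and 8 Duroc boars was sequenced as stranded mRNA libraries, 1 per boar. The authors trimmed reads with Trimmomatic 0.36, aligned them to Sscrofa11.1 with STAR and counted them per Ensembl gene with HTSeq. The deposited values are raw counts without normalization. Lines that name no gene (29.4% to 39.0% of reads per library) were left out. Library depth is given in the report, and a level based on few counts is less precise.

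From these counts, edgeR 4.0.16 (run in R 4.3.3) kept genes that reached 1 CPM in 4 or more libraries of the comparison (8 for the breed comparison and the breed-by-label interaction), with TMM scaling, and compared groups with the quasi-likelihood test, with Benjamini-Hochberg adjustment over all genes tested. Log2 CPM used a prior count of 2. For single genes and for correlations within sets of boars, exact two-sided permutation tests were added. Alternatives were the likelihood ratio test that the study used, DESeq2 1.42.0, other scaling and filters, a robust fit, joint fits, and leaving out boars. The fits were tested on simulated data. Boars of a group differed by more than counting noise, so none was a duplicate.

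The members and gene lists were chosen with earlier results of these data known. Genes named were the members, the 5 protein-coding genes on each side of *DNLZ*, the 5 most and 3 least similar genes, and, per list, the highest and lowest called gene of contrast (i); *TIMM17B* was named after its value was seen. Identifiers were named for 14857 genes. Positions are from RefSeq. p-values measure the spread between boars, each with a single library.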

Additional observations from a re-analysis of the deposited data

Results flagged for a closer look

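In 1 of 52 groups of gene levels checked, a single boar stood apart by Dixon's criterion at the 95% level, where chance gives about 2.6 such groups. *ENTR1* was at 42.4 CPM in L12 of Low_d4_0, while the other 3 boars of the group had 29.7 to 31.6 CPM. No group of *DNLZ* or its partners was set apart in this way.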

How the results depend on the processing

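Of 681 refits of a member's fold change, 659 kept direction and call, 13 reversed and 9 newly passed, the latter being *HSPA9*, *HSPD1* and *HSPE1* in contrast (i). *DNLZ* kept its direction in contrasts (i) and (iii) under every alternative that kept it. It could not be fitted in contrast (i) without L1, L2, L3 or L4 (nor without L2 and L7), because too few boars then reached 1 CPM. Reversals were *GRPEL2* in contrast (iii) without L13 (-0.25, up to 0.28 without another boar), *DNAJC19* in the interaction without D6 (-0.041, up to 0.13 without D7), in Duroc boars without D2 and D3 *HSPA9* (-0.082) and *TIMM44* (0.0058), and between breeds *TIMM44* (-0.092 to 0.030 without 1 boar, above 0 without L2, L4 or D3, and 0.036 with the label as a term), *HSPE1* (-0.15 to 0.0053 without 1 boar, above 0 without L6 or L13, and 0.28 against 7 Low-labelled boars), *HSPD1* (-0.0061 without D5, up to 0.16 without L6) and *DNLZ* (-0.13 against 7 Low-labelled boars).

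The 2682 genes called in contrast (i) became 1 to 3764 when 1 boar was left out: 1 without L3 or L6, 966 without L1, 1481 without L4 and 1228 without L8. DESeq2 called 3922, 1458 higher and 2464 lower, against 626 and 2056. Contrast (iii) gave 64 calls by the likelihood ratio test, 116 by DESeq2, 1 with each of the other filters, and 0 to 1 without 1 boar. Duroc boars gave 0 to 2 calls without 1 boar and 1 without D2 and D3. The 378 breed calls became 204 with the 8 day 0 Landrace boars and 657 with the 7 Low-labelled boars. The interaction gave 3 calls by the likelihood ratio test and 0 to 1 without 1 boar. Fits without D2 and D3, against 7 Low-labelled boars, and the alternatives to the interaction fit were chosen after seeing the data. Depth limits *DNLZ* most, at 27 to 82 reads in the High-labelled Landrace boars. No paired analysis was possible because replicate numbers only follow accession order and pair no boars.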

Other observations

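Near *DNLZ*, *GPSM1* had 0 to 28 reads per boar and *LHX3* had 0 to 4, too few to be tested. Over the 8 Duroc boars, *DNLZ* was lower in deeper libraries (Pearson's r = -0.720 with reads per library, exact permutation p = 0.0398, FDR = 0.287, Spearman's rho = -0.667, exact permutation p = 0.0831). Without the 2 boars farthest from the median of *DNLZ*, r was -0.131, so the relation rests on those boars.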
